A study of Mus musculus with 4 samples.

Results

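Spots rich in the transcripts of Lypd1 and Lmo3 were picked out of spatial transcriptomes of mouse brain, recorded at day 11 in a model in which a tumour was inoculated and then resected. A spot is a small disc of the capture array that can hold several cells of different types, or part of a cell. Each spot over tissue with at least 2000 UMIs (unique molecular identifiers, each counting a captured probe product) received a score, the summed CPM (counts scaled to a common total per spot or per sum of spots) of Lypd1, Lmo3, Slc30a3, Bhlhe22, Otof and Oxtr. The members are the spots at or above the 96th percentile of that score over all 4 capture areas. They numbered 508 of 12696 spots, and the remaining 12188 are called the other spots. The 6 genes were chosen with results of these data in view, so their levels, and every contrast of members with other spots, are given as description with no test.

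The Vehicle group had the capture areas Vehicle 1+4 and Vehicle 2+3, and the TREAT group had TREAT 1+4 and TREAT 2+3. All 4 areas came from that tumour-inoculated model, read from formalin-fixed, paraffin-embedded sections with hybridised probes. The series' design separates hydrogel-treated from non-treated mice, without saying what the vehicle was, and the tumour line, mouse strain, sex and age are not given in the sources used here. It names 4 animals in all, while each capture area carried 2 separate pieces of tissue, 8 altogether, which are called left and right here. The labels do not tie a piece to an animal, so the 4 areas served as replicates and no p-value measures the spread between animals. The p-values of edgeR, used for genes below, rest on a spread partly shared across genes. A gene whose areas differ widely within a group can therefore still have a small p. In spots, fewer cells of a type and less RNA per cell cannot be told apart.

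Several of the 6 genes mark excitatory neurons of the telencephalon. Slc30a3 encodes the transporter ZnT3, which loads zinc into glutamatergic synaptic vesicles, and the zinc-rich terminals it serves are dense in the amygdala, the olfactory cortex, the hippocampus and the upper and deep layers of the neocortex. Lypd1 encodes a membrane-anchored protein of the Ly6 family that modulates nicotinic acetylcholine receptors. Lmo3 is a LIM-only transcriptional cofactor that is enriched in the basolateral amygdala, a nucleus that links sensory cues to fear and reward. Bhlhe22 is a transcription factor of cortical projection neurons, Otof encodes the vesicle calcium sensor otoferlin, and Oxtr is the receptor of the hormone oxytocin. Basolateral amygdala and piriform cortex, the main cortical target of the olfactory bulb, lie near each other in the ventral and lateral forebrain.

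The 4 areas held 3193, 3488, 3352 and 3013 spots over tissue in the order Vehicle 1+4, Vehicle 2+3, TREAT 1+4 and TREAT 2+3, which is the order of all lists of 4 values below. Their spots over tissue carried 34202695, 45960125, 56150597 and 51081123 UMIs. The members summed to 528920, 21370, 1448393 and 4513221 UMIs. In Vehicle 2+3 a single UMI therefore equals 46.8 CPM, and a level there rests on a handful of molecules. Vehicle members were also shallower than the other spots of their own areas, with median counts of 4541 against 7937 and 2414 against 9392 UMIs, whereas TREAT members had 18615 against 14921 and 11833 against 12347 UMIs. The member sums of Vehicle 2+3 stood apart from the other areas, at a Pearson r of 0.72 to 0.74 across genes against 0.95 to 0.98 among the other 3 areas.

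Members were unevenly spread over the areas. They made up 3.08% (Wilson 95% interval 2.52 to 3.76) of the spots of Vehicle 1+4, 0.210% (0.102 to 0.434) of Vehicle 2+3, 1.94% (1.53 to 2.47) of TREAT 1+4 and 11.4% (10.3 to 12.6) of TREAT 2+3. These intervals, and all intervals on UMI counts below, cover counting error only. TREAT 2+3 alone held 343 members, or 67.5% of the total, split between its left piece (179) and its right piece (164). Vehicle 1+4 held 93, TREAT 1+4 held 65 and Vehicle 2+3 held 7. The Vehicle areas averaged 1.65% ± 2.03 and the TREAT areas 6.68% ± 6.70 (SD, n = 2 each), a difference of 5.03 percentage points that was smaller than the spread between the TREAT areas (two-sided exact permutation test, p = 0.667, where 2 areas against 2 cannot go below 0.333). The groups overlapped, since Vehicle 1+4 lay above TREAT 1+4. Without TREAT 2+3 the difference was 0.294 percentage points, and without the other areas in turn it was between 3.60 and 9.77.

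**Figure D1:**
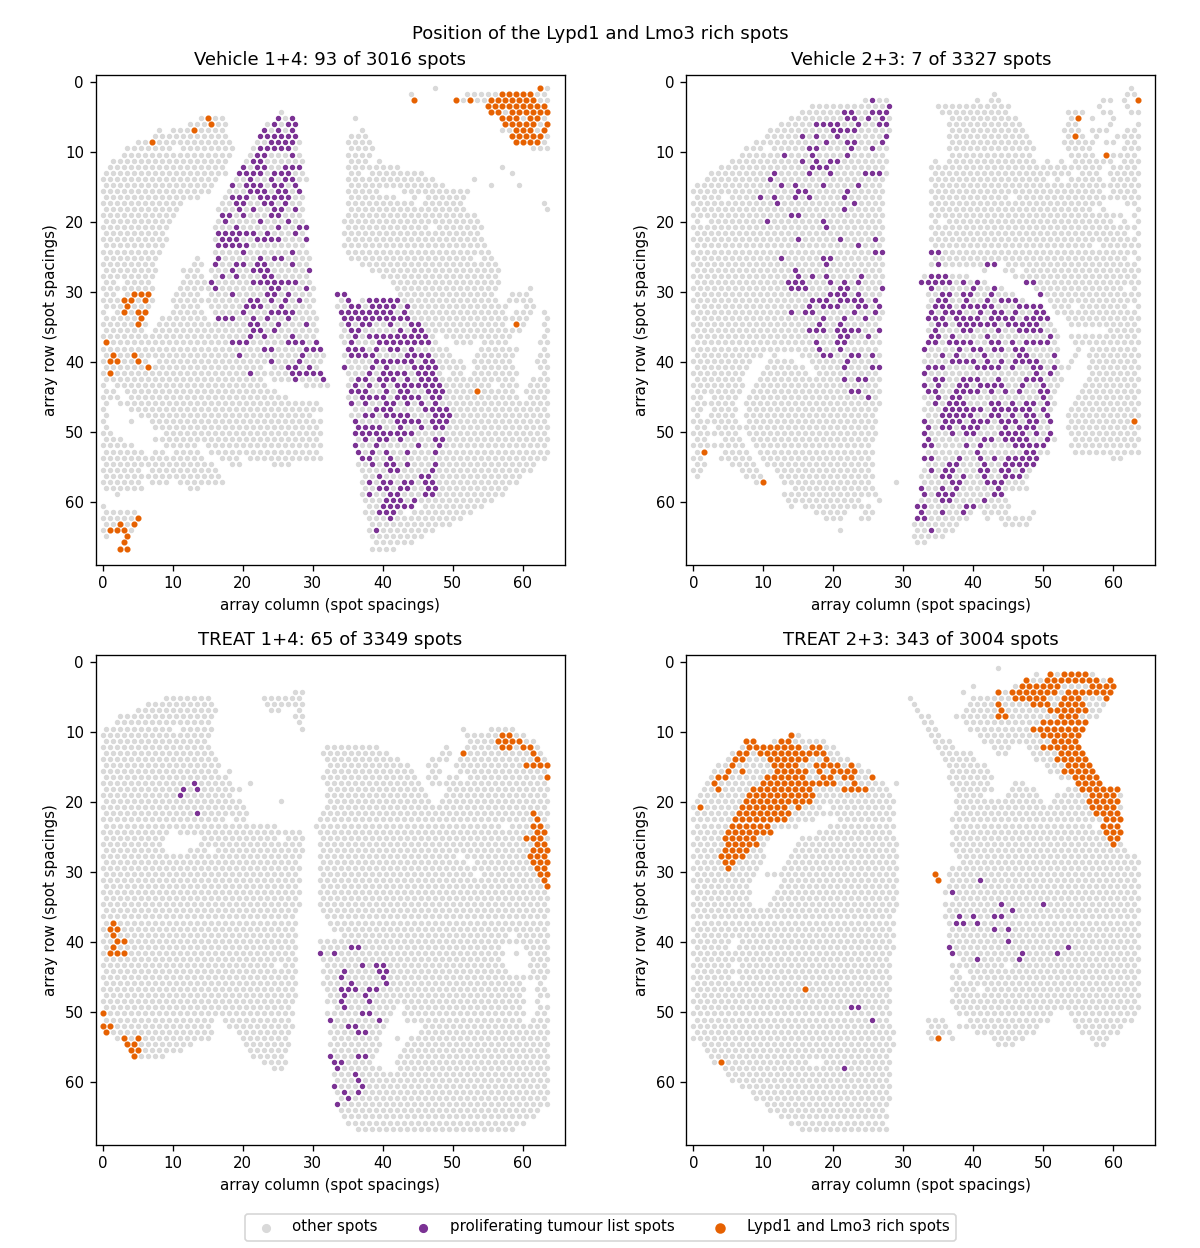
Position of the members in the 4 capture areas, with array column and array row in spot spacings (nominally 100 micrometres). Orange points are members, purple points are spots at or above the 92nd percentile of the proliferating tumour gene list, and grey points are all other spots. The 343 members of TREAT 2+3 form a broad band in each piece, the 65 of TREAT 1+4 lie at the outer edges of its pieces, 57 of the 93 of Vehicle 1+4 lie in a detached fragment at the upper right, and the 7 of Vehicle 2+3 are scattered.

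Members clustered in space, which the score did not ask for. On average, 60.5%, 0%, 55.1% and 77.0% of the spots next to a member were members themselves in the 4 areas, against overall shares of 3.08%, 0.210%, 1.94% and 11.4%. Connected patches of at least 10 members numbered 6 and held 435 members (85.6%). They had 174 and 156 members in the left and right pieces of TREAT 2+3, 10 in the left piece of TREAT 1+4, 26 and 16 in a lower and an upper patch of its right piece, and 53 in the right piece of Vehicle 1+4. The other 73 members fell into 39 smaller groups, 28 of them lone spots, and all 7 members of Vehicle 2+3 were lone. The Vehicle 1+4 patch lay wholly within a tissue fragment detached from its piece, where 57 of 84 spots (67.9%, Wilson interval 57.3 to 76.9) were members. Without that fragment the Vehicle mean was 0.719% and the difference 5.96 percentage points (exact permutation p = 0.333, the smallest this design allows), a comparison chosen after seeing the data.

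The score ran from 1385 CPM in the lowest member to 5554 CPM in the highest, with a median of 2044 CPM against 68.3 CPM in the other spots. Just inside the threshold of 1384 CPM the fifth lowest member had 1390 CPM, and just outside it the fifth highest other spot had 1375 CPM. Within 10% of the threshold lay 69 members above and 79 other spots below. Lypd1 (chromosome 1, 125867622 to 125913175 in GRCm38.p6) gave 49.8% of the members' score UMIs, with 832, 515, 922 and 1189 CPM in members against 23.4, 11.0, 71.6 and 49.9 CPM in other spots. Slc30a3 followed with 21.8% and 412, 562, 542 and 469 CPM. Bhlhe22 gave 12.9%, and its 492, 374, 132 and 309 CPM were lowest in TREAT 1+4. Lmo3 (chromosome 6, 138362918 to 138582206) gave 11.7%, with 183, 46.8, 336 and 242 CPM, the lowest of these being 1 UMI. Otof (58.6, 140.4, 29.7 and 66.2 CPM) gave 2.62% and Oxtr (24.6, 93.6, 8.98 and 35.2 CPM) 1.30%. A UMI of Lypd1 was found in 97.2% of members and of Lmo3 in 83.5%, against 28.5% and 21.2% of the other spots, and a UMI of Oxtr in 25.2% against 6.48%.

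Excitatory neuron genes were high in the members. Of 7 glutamatergic neuron genes, 4 were over 2-fold higher in members than in other spots in all 4 areas (1 CPM added to both sides), as were 181 (1.97%) of the 9188 genes of at least 20 CPM over all spots together, a background added after the data were seen. Slc17a7, the vesicular glutamate transporter of cortical-type neurons, stood at 2462, 1404, 3148 and 2308 CPM in members against 608, 362, 935 and 984 CPM in other spots. Camk2a, the main kinase of excitatory postsynapses, stood at 2099, 1919, 1848 and 1889 against 507, 301, 676 and 633 CPM, and Nrgn, its calmodulin-binding partner in dendrites, at 2199, 1825, 1547 and 1271 against 547, 258, 705 and 521 CPM. Neurod2, a transcription factor of cortical excitatory neurons, was the fourth, at 367, 187, 164 and 171 against 63.2, 34.7, 49.3 and 72.1 CPM. Slc17a6, the transporter of thalamic and hypothalamic glutamate neurons, was low at 9.45, 0, 38.0 and 21.0 CPM.

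Synaptic genes followed the same pattern in smaller measure. The median gene of the list, over the mean log2 ratio of the 4 areas, was higher in members by 1.24 for 16 presynaptic genes, 1.33 for 17 ionotropic glutamate receptor genes and 0.99 for 12 GABA-A receptor genes, against 1.74 for the glutamatergic list and -0.41 for the 9188 background genes. Gria1, an AMPA receptor subunit, stood at 887, 936, 362 and 589.8 against 156, 88.9, 244 and 183 CPM, with the smallest difference in TREAT 1+4. Cplx2, a complexin that clamps vesicle fusion in excitatory terminals, stood at 1310.2, 468, 733 and 666 against 199, 127, 291 and 208 CPM. Gabra2, a GABA-A receptor subunit of forebrain neurons, stood at 240.1, 140.4, 154 and 211 against 37.8, 20.3, 66.4 and 43.1 CPM. The 22 genes of zinc handling, Slc30a3 left aside, went otherwise: none was over 2-fold higher in all 4 areas and their median was -1.27. Among them Mt3, the metallothionein of the brain, had 1978, 1778, 1369.8 and 1568 CPM in members and 832, 603, 1532 and 1115 CPM in other spots, higher in 3 areas and lower in TREAT 1+4.

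In sum over an area, lists of tumour and inflammation genes were lower in members than in other spots. All 10 proliferating tumour genes, 9 of 9 mesenchymal glioma genes, 14 of 14 antigen presentation genes, 10 of 11 reactive astrocyte genes and 12 of 15 interferon-stimulated genes were over 2-fold lower in members than in other spots in all 4 areas. Of the 9188 background genes, 934 (10.2%) were. The proliferating list summed to 28.4, 46.8, 24.2 and 32.1 CPM in members against 1428, 1571, 375 and 906 CPM in other spots. Antigen presentation genes, which carry peptides to T cells, summed to 512, 983, 295 and 787 against 12782, 16456, 4351 and 10855 CPM. Oligodendrocyte genes summed to 2104, 5335, 1974 and 2037 against 4157, 3141, 11670.1 and 6362 CPM, and in Vehicle 2+3, with its 7 members, they were higher in members. Its members also had the highest hypothalamic sum, 468 CPM, against 47.3, 56.6 and 75.1 CPM in the other areas. T and NK cell genes summed to 11.3, 46.8, 6.90 and 18.2 CPM in members.

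**Figure D2:**
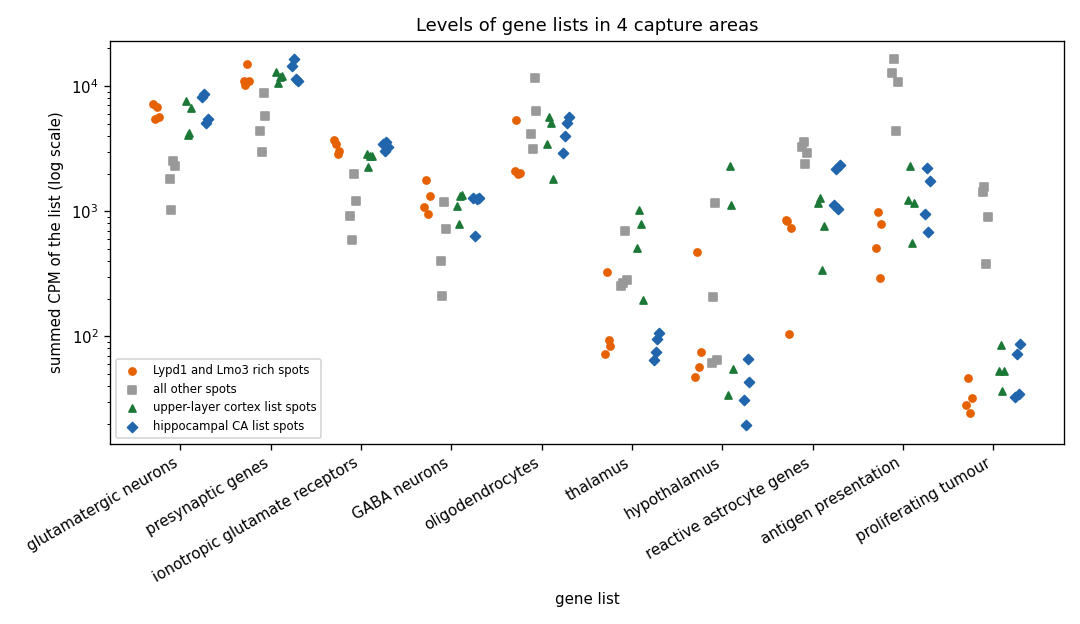
Summed CPM (log scale) of 10 gene lists in the members (circles), all other spots (squares), the upper-layer cortex list spots (triangles) and the hippocampal CA list spots (diamonds), with 1 point for each of the 4 areas, ordered from left to right as Vehicle 1+4, Vehicle 2+3, TREAT 1+4 and TREAT 2+3. Members lie with both neuronal sets for glutamatergic and synaptic genes, and below the other spots for reactive astrocyte, antigen presentation and proliferating tumour genes in all 4 areas.

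Genes were ranked by their lowest log2 ratio of members over other spots in any area, outside the 6 score genes and among genes of at least 20 CPM in the members of every area, a level that 1 UMI reaches in Vehicle 2+3. The first was Ankfn1 (20.8, 46.8, 84.9 and 52.7 CPM against 2.66, 3.37, 17.4 and 8.87 CPM). Kcng1, a modifier subunit of voltage-gated potassium channels, came next with 35.9, 46.8, 44.2 and 51.8 against 5.44, 2.32, 9.73 and 8.01 CPM. Both had 1 UMI in the members of Vehicle 2+3, as had C1ql3, Kcnv1, Ypel1 and Rgs14 among the genes named next. Ccn3, a secreted matricellular protein, stood at 338, 187, 225 and 312 against 36.2, 9.23, 52.8 and 52.7 CPM. Other leading genes were Syt17, a synaptotagmin (214, 140.4, 146 and 172 CPM), C1ql3, a secreted synaptic organiser of the C1q family (204, 46.8, 153 and 146 CPM), Itpka, an inositol trisphosphate kinase of dendritic spines (543, 515, 655 and 629 CPM), and Cpne6, a calcium-dependent membrane-binding copine (792, 328, 526 and 559 CPM). Icam5, the adhesion molecule of telencephalic dendrites, stood at 688, 328, 565 and 665 against 90.6, 49.2, 166 and 165 CPM. Further leading genes were Gprin1, Kcnv1, Ctxn1, Rtn4rl2, Hpcal1, Ak5, Ypel1, Tafa2, Kcnj4, Rgs14 and Lzts1, whose lowest log2 ratios lay between 1.65 and 1.95.

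At the other end, 10 genes were taken by the lowest value of their highest area ratio, among genes of at least 20 CPM in the other spots of every area. Cxcl10, a chemokine that draws T cells, had 1.89, 0, 1.38 and 6.65 CPM in members against 835, 859, 188 and 643 CPM in other spots. Gbp2, an interferon-induced GTPase, had 13.2, 0, 3.45 and 12.2 against 717, 1014, 263 and 1011 CPM, and Bst2, an interferon-induced membrane protein, had 20.8, 46.8, 11.7 and 36.8 against 1714, 1952, 604 and 1549 CPM. Mki67, the proliferation antigen, had 0, 0, 1.38 and 2.44 against 141, 166, 72.5 and 158 CPM. Tex101, a gene of the germ line, and Rhox5 had at most 2.44 and 1.33 CPM in any area's members. In other spots they had 368, 556, 95.9 and 372 CPM and 316, 480.2, 103 and 345 CPM. The remaining names on that side were Rsad2, Afp, Hist1h2af and Insl6.

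Members also differed from 2 sets of neuronal spots picked by other lists. Against the 885 spots richest in upper-layer cortex genes that were not members, Sstr2, a somatostatin receptor, was higher (30.3, 46.8, 30.4 and 20.8 against 7.60, 7.90, 8.60 and 6.90 CPM), as was Bcl11b, a transcription factor of subcortically projecting neurons (109.7, 46.8, 42.1 and 42.1 against 31.8, 10.2, 14.3 and 19.7 CPM). Hpcal1, a neuronal calcium sensor, was higher too (476, 328, 385 and 653 against 129.9, 140.0, 128 and 203 CPM). Rims3, a regulator of presynaptic release, was lower in members in all 4 areas, at 58.6, 46.8, 46.9 and 25.9 against 227, 224, 249 and 125 CPM. Prkcd and Ramp3, also lower in members, mark the thalamus, and the upper-layer set carried thalamic list genes at 511, 1024, 783 and 194 CPM in sum, so that set is no pure cortex. Against the 1005 spots richest in hippocampal CA genes, Cckbr, the brain cholecystokinin receptor, was higher in members (34.0, 93.6, 93.2 and 44.8 against 6.80, 9.47, 30.2 and 7.43 CPM), and Kcnc4, a fast potassium channel, likewise (354, 374, 202 and 270.3 against 108, 56.0, 66.2 and 29.7 CPM). The CA set of the TREAT areas held striatal list genes at 3838 and 3544 CPM, against 189 and 181 CPM in Vehicle, so it was not the same tissue in both groups. Ankfn1 and Hpcal1 were among the 10 leading genes in both contrasts.

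The patches were not copies of each other. The left patch and the lower right patch of TREAT 1+4 had the highest sums of the basolateral amygdala list, 2081 and 2143 CPM, against 664 to 1082 CPM in the other 4 patches. Of its 7 genes 5 and 6 were over 2-fold above the other spots of the same piece (1 CPM added to both sides, as in all such counts below), with median log2 ratios of 1.22 and 1.66. The right patch of TREAT 2+3 also had 5, with a median of 1.502. The share of all genes over 2-fold higher was not taken for any patch. Such list counts, here and below, are therefore description and name no structure. Cyp26b1, which degrades retinoic acid, had 269 against 19.6 CPM in the left patch and 187 against 15.3 CPM in the lower right patch. Rspo2, a secreted enhancer of Wnt signalling and a marker of basolateral amygdala neurons, had 73.9 against 10.3 CPM and 59.3 against 9.69 CPM. Grp, the gastrin-releasing peptide, had 60.4 against 7.81 CPM and 84.8 against 8.44 CPM. Cck, the peptide cholecystokinin, had 1464 against 629.6 CPM and 1577 against 525 CPM, and Etv1, an ETS transcription factor, had 87.3 against 41.5 CPM and 78.0 against 37.1 CPM. Reln and Calb2 of the olfactory cortex list were not raised there (20.1 and 40.3 CPM on the left, 15.3 and 32.2 CPM on the right). Over whole spots, 5 of 10 and 16 of 26 members of these patches were among the top 4% of all spots by the basolateral amygdala list, against 29 of all 508 members (5.71%, Wilson interval 4.00 to 8.08) and 3.93% of other spots. Cck, at 1464 and 1577 CPM, made up most of the list sums of 2081 and 2143 CPM in these patches. Rankings of spots by the summed CPM of this list, here and below, therefore rest largely on Cck.

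Position was measured from patches of spots rich in other lists. Members of the left patch lay a median of 1.73 spacings from the nearest striatal list patch and 3.53 from the nearest CA list patch, against 8.66 and 15.0 for the other spots of that piece. Members of the lower right patch lay 2.65 spacings from the striatal list patch, against 14.7 for the other spots, but 21.3 from the CA list patch, against 14.0. The CA list spots of the TREAT areas also carried striatal list genes, as given above, so a CA list patch there need not be hippocampus. Of 6 CA list genes 3 (Spink8, Hpca and Neurod6) were over 2-fold above the other spots in the left patch and 1 (Neurod6) in the lower right patch. Of 8 deep-layer list genes 3 (Fezf2, Rprm and Bcl11b) and 4 (those and Ccn2) were, with median log2 ratios of 0.11 and 0.94, so these 36 members are given no single structure's name. The central and medial amygdala list was low there, with 87.3 and 50.9 CPM against 589 and 535 CPM in the other spots. The lower right patch also led all patches in Ccn2, a matricellular protein of layer 6b and claustral neurons, at 198 against 29.5 CPM, and 3 of 6 claustrum list genes (Nr4a2, Oprk1 and Synpr) were over 2-fold higher, so neighbouring claustral or endopiriform tissue in the same spots cannot be told apart.

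The upper right patch of TREAT 1+4, 16 deep spots with a median of 26225 UMIs, had another character. None of the 7 basolateral amygdala genes was over 2-fold above the other spots, and Cyp26b1 (2.39 against 15.3 CPM) and Grp (4.78 against 8.44 CPM) were low. Its score came less from Lypd1 (416 CPM, against 1152 to 1494 CPM in the other 5 patches) and more from Lmo3 (461 CPM) and Slc30a3 (633 CPM). Its leading gene over the next patch was Igfn1, with 263 CPM (exact Poisson 95% interval 216 to 317) against 8.05 CPM in the other spots. Tekt5 (81.3 CPM), Gsg1l, an AMPA receptor auxiliary subunit (124 CPM), and Tafa2, a secreted neuronal factor (473 CPM), followed. Ppp1r1b, the dopamine signalling protein DARPP-32 known from striatum and deep cortical layers, had 915 against 240.1 CPM, and Reln, the secreted glycoprotein reelin, 131 against 22.4 CPM. Of the olfactory cortex list, Reln and Nrp2 (148 against 52.9 CPM) were over 2-fold higher and Calb2 (21.5 against 157 CPM) and Trh (0 against 43.7 CPM) were low. Of the deep-layer list 3 of 8 genes (Rprm, Hs3st4 and Bcl11b) and of the striatal list 3 of 10 (Ppp1r1b and Drd1 among them) were over 2-fold higher, and the patch is called only by its genes.

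Both large patches of TREAT 2+3 resembled each other closely (Pearson r = 0.97 across 7997 genes, against 0.76 to 0.93 for the other pairs of patches). They also had the most UMIs, 2012159 and 2355425 in sum, against 148933 to 589783 in the other patches. The part of depth in r was not tested. Both patches combined genes of several lists. Calb1, the calcium buffer calbindin, had 634 against 174 CPM on the left and 523 against 94.2 CPM on the right. Nr2f2, a transcription factor of the caudal and ventral telencephalon, had 51.7 against 10.0 CPM and 65.0 against 6.29 CPM. Synpr, a synaptic vesicle protein, had 262 against 89.7 CPM and 313 against 75.9 CPM. Trh, the precursor of thyrotropin-releasing hormone, had 54.2 against 9.52 CPM and 45.9 against 11.0 CPM, and Calb2, the calcium buffer calretinin, 84.5 against 32.6 CPM and 61.1 against 10.1 CPM. Grp had 57.6 against 9.42 CPM and 84.1 against 7.98 CPM, but Rspo2 (11.4 against 8.61 CPM and 16.6 against 6.22 CPM) and Cyp26b1 (23.4 against 4.84 CPM and 34.0 against 5.84 CPM) stayed far under their level in the left and lower right patches of TREAT 1+4. Of the olfactory cortex list 3 of 6 genes were over 2-fold higher in each (Reln, Calb2 and Trh), and of the basolateral amygdala list 3 and 5 of 7. By whole spots, 0 of 174 and 7 of 156 reached the top 4% by the amygdala list and 1 of 174 and 7 of 156 by the olfactory list, so neither name is given. Oxtr was highest here and in the Vehicle 1+4 patch, at 42.2, 26.7 and 39.1 CPM, against 6.71, 3.39 and 16.7 CPM (1, 2 and 7 UMIs) in the patches of TREAT 1+4.

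The members' only patch in Vehicle, in the detached fragment of Vehicle 1+4, was led by Nnat, the imprinted neuronal gene neuronatin, at 4860.4 against 131 CPM. B3gat2, a glucuronyltransferase (148 CPM), Rgs2, a regulator of G protein signalling (391 CPM), and Slc24a4, a sodium, potassium and calcium exchanger (343 CPM), were also higher than in any other patch. Ttr, the transthyretin of choroid plexus, had 1224 against 1112 CPM, and so was high in the whole piece. Calb1 (516 against 72.1 CPM), Calb2 (135 against 25.9 CPM), Nr2f2 (73.8 against 6.69 CPM) and Synpr (217 against 30.1 CPM) were higher there, as in TREAT 2+3. The patch correlated best with those of TREAT 2+3 (r = 0.88 and 0.89, against 0.76 to 0.84 for the patches of TREAT 1+4). The patches of TREAT 2+3 also had the most UMIs, and the part of depth in r was not tested. Reln and Cyp26b1 had no UMI, and Grp had 4.34 CPM, while Rspo2 had 30.4 against 3.35 CPM. Of 10 striatal list genes 6 were over 2-fold above the other spots of the piece, Penk (113 against 9.30 CPM) and Ppp1r1b (286 against 53.4 CPM) among them. Its members were shallow, with a median of 3952 UMIs, and they lay a median of 31.6 spacings from the nearest tumour list patch. As the fragment is detached, that is a distance on the array across a gap and not one through tissue.

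Many members of Vehicle 1+4 outside that patch carried dentate gyrus genes. Among the 93 members of that area, 23 (24.7%) were also in the top 4% of spots by the dentate gyrus list, 19 of them among the 40 members outside the patch, against 1 member in TREAT 2+3 and 0 in the other areas. In these 23, Prox1, the transcription factor that defines dentate granule cells, stood at 664 CPM, C1ql2, a mossy fibre synapse protein, at 824 CPM and Dsp, the desmosomal protein desmoplakin, at 113 CPM. In the other 70 members of the area Prox1 stood at 25.3 CPM and C1ql2 at 72.7 CPM. Prox1, C1ql2 and Dsp belong to the list that picked the 23 spots, so this contrast follows from the choice and is no independent result. Dentate granule cells are known for zinc-rich terminals. In the comparisons of TREAT with Vehicle below, treatment and the brain structure of the members cannot be told apart.

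**Figure D3:**
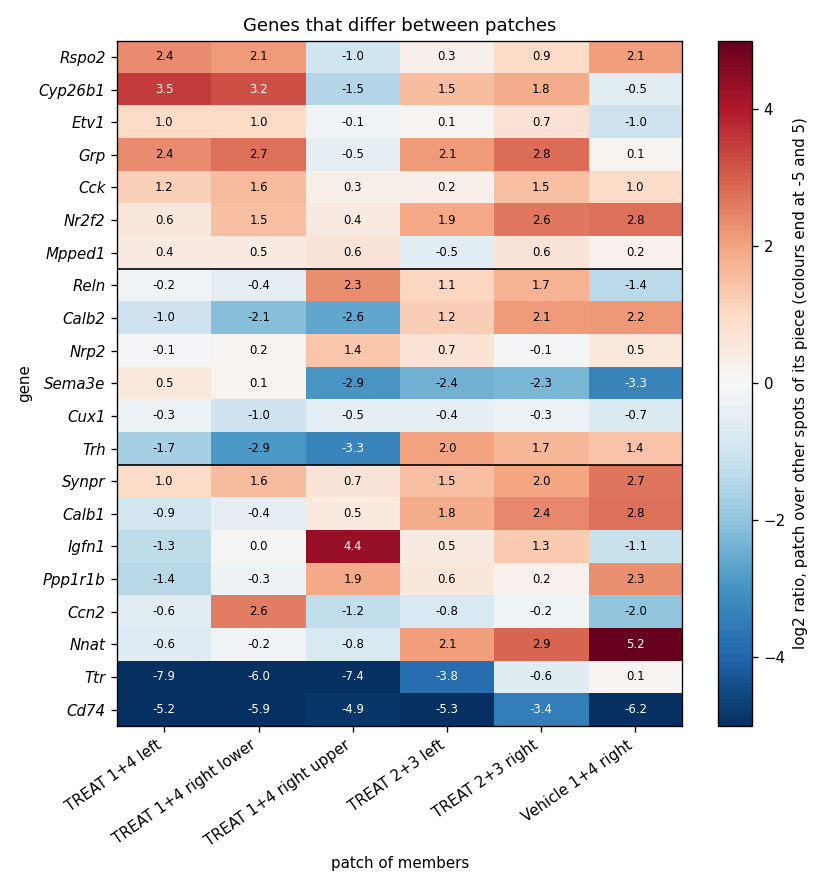
Log2 ratio of each patch over the other spots of its tissue piece, with 5 CPM added to both sides, for the 7 basolateral amygdala genes (top), the 6 olfactory cortex genes (middle) and 8 genes that set patches apart, chosen after their values were seen (bottom). Columns are the 6 patches of at least 10 members and colours end at -5 and 5. The amygdala gene Cyp26b1 is highest in the left and lower right patches of TREAT 1+4, Igfn1 in its upper right patch and Nnat in the Vehicle 1+4 patch. Rspo2 is about as high in the Vehicle 1+4 patch (2.08) as in the left and lower right patches of TREAT 1+4 (2.37 and 2.13).

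Within the right piece of TREAT 2+3 the members' immune and glial genes were graded with distance from tumour. Its 164 members lay between 4.58 and 30.2 spacings from the nearest patch of spots rich in proliferation genes. The antigen presentation list stood at 1725, 1107 and 717 CPM in its 55 nearest, 54 middle and 55 farthest members (exact Poisson intervals 1638 to 1816, 1032 to 1186 and 661 to 776). The reactive astrocyte list stood at 2105, 937 and 342 CPM and the interferon list at 447, 347 and 203 CPM. C4b, a complement component made by reactive astrocytes, had 336, 145 and 38.7 CPM, Cd74, the invariant chain of MHC class II, had 366, 215 and 137 CPM, and B2m, the light chain of MHC class I, had 651, 458 and 297 CPM. Glutamatergic genes did not follow, at 5634, 5669 and 5839.7 CPM. In all, Cd74, H2-Eb1, H2-Aa, H2-Ab1, Bst2, H2-K1 and Psmb8 were among the 10 genes that set this patch apart from the other patches.

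Other pieces showed less of a gradient, but their members lay at unlike distances from tumour. Those of the right piece of TREAT 1+4 lay 25.1 to 37.0 spacings away. The middle and farthest members of the left piece of TREAT 2+3 lay 28.2 to 38.0 spacings away, and those of the left piece of Vehicle 1+4 in all 6.93 to 31.2. Both TREAT pieces named here thus had few or no members at the nearer distances. The left piece of TREAT 2+3 had 367, 301 and 269.8 CPM of the antigen presentation list over its nearest, middle and farthest members, the right piece of TREAT 1+4 265, 318 and 225 CPM and the left piece of Vehicle 1+4 519, 419.5 and 330.4 CPM, the last on 58, 39 and 24 UMIs with overlapping intervals of neighbouring groups. Between 10 and 15 spacings in the right piece of TREAT 2+3, 23 members had 1617 CPM of the list and 130 other spots 2295 CPM. Between 15 and 20 spacings the values were 1641 CPM (47 members) and 5131 CPM (64 other spots), and between 25 and 30 spacings 677 CPM (47) and 1140.0 CPM (27). In the left piece at 25 to 30 spacings, 101 members had 338 CPM and 104 other spots 357 CPM, with overlapping intervals. Each gradient comes from a single piece, and the part of brain structure in it was not tested.

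**Figure D4:**
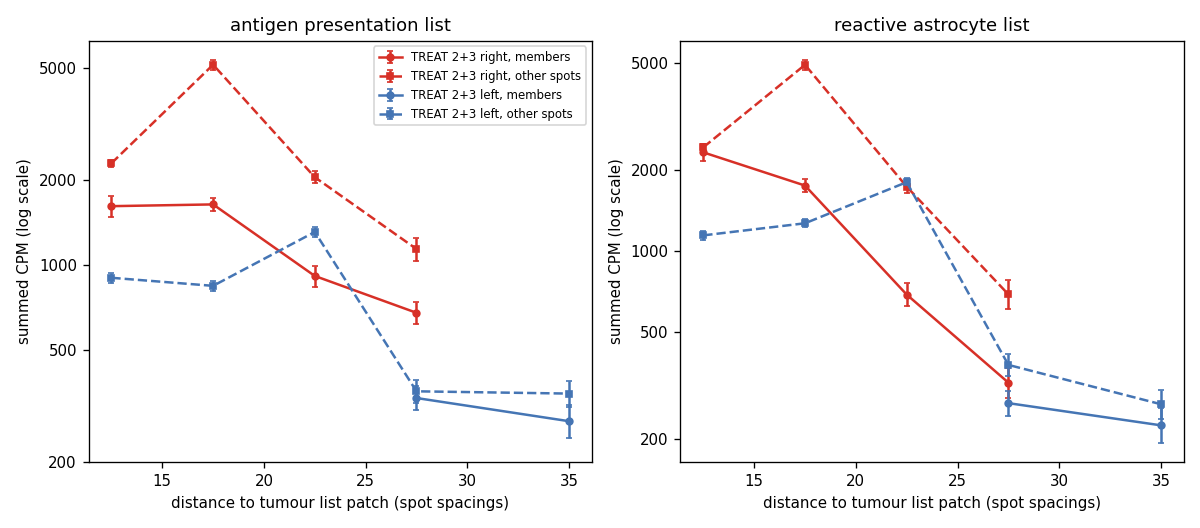
Summed CPM (log scale) of the antigen presentation list (left) and the reactive astrocyte list (right) against the distance to the nearest tumour list patch in spot spacings, for members (solid) and other spots (dashed) of both pieces of TREAT 2+3. Points sit at the middle of each distance band, and bars are exact Poisson 95% intervals. In the right piece members go from 1641 CPM at 15 to 20 spacings to 677 CPM at 25 to 30 spacings for antigen presentation, and lie below the other spots in each band from 10 spacings on, with overlapping intervals for reactive astrocyte genes at 10 to 15 spacings (2324 against 2426 CPM).

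Between TREAT and Vehicle, members differed in few genes. With edgeR's quasi-likelihood test on the 4 member sums, 19 of 10133 genes were higher in TREAT (0.188%) and 37 lower (0.365%) at an adjusted p under 0.05. Of these, 16 and 21 had areas that did not overlap between the groups on edgeR's TMM-scaled CPM. The share of all tested genes without overlap was not taken, so these counts only describe the called genes. Without Vehicle 1+4 no gene passed (784 had an unadjusted p under 0.05), and without Vehicle 2+3 only 2 did. DESeq2 called none (37 at an unadjusted p under 0.05). Of the 56 genes, 33 of the lower and 16 of the higher had at most 3 UMIs in the members of Vehicle 2+3. Those members held only 21370 UMIs over all genes, and the share over all tested genes was not taken. Low counts there are therefore not read as a trait of the called genes.

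The higher genes included markers of the amygdala and of the other TREAT patches. Cyp26b1 stood at 0 and 0 CPM in Vehicle 1+4 and 2+3 and at 108 and 28.1 CPM in TREAT 1+4 and 2+3 (log2 9.72 ± 1.47 SE, edgeR adjusted p = 6.90e-08). With 0 UMIs in all Vehicle members and 283 in TREAT, the fitted change is no bound, and taking 3 UMIs over the Vehicle group as the floor it was at least 8.71-fold higher. Of the 283 UMIs, 40 lay in the left and 110 in the lower right patch of TREAT 1+4. Grp stood at 9.45 and 46.8 CPM in Vehicle 1+4 and 2+3 and at 42.8 and 70.5 CPM in TREAT 1+4 and 2+3 (log2 2.41 ± 0.58 SE, edgeR adjusted p = 0.00825), where the Vehicle 2+3 value is 1 UMI. In these plain CPM the Vehicle 2+3 value lay above that of TREAT 1+4, so the groups overlapped, although they did not on the TMM scale. Igfn1 stood at 3.78 and 0 CPM in Vehicle 1+4 and 2+3 and at 111 and 17.7 CPM in TREAT 1+4 and 2+3 (log2 4.04 ± 0.74 SE, edgeR adjusted p = 5.42e-05), from 2 against 241 UMIs, a ratio of 11.1 with a counting interval of 3.05 to 92.4, and 110 of those UMIs lay in the 16 spots of the upper right patch of TREAT 1+4. With the mean rank of the 6 genes as the score, Igfn1 had a log2 change of -0.047. Ccn2 stood at 7.56 and 0 CPM in Vehicle 1+4 and 2+3 and at 94.6 and 25.7 CPM in TREAT 1+4 and 2+3 (log2 2.98 ± 0.64 SE, edgeR adjusted p = 0.00154), with 117 of its 253 TREAT UMIs in the lower right patch.

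Others of the higher genes were less bound to a single patch. Tshz2, a transcription factor of deep and retrosplenial cortex, stood at 13.2 and 0 CPM in Vehicle 1+4 and 2+3 and at 119 and 71.6 CPM in TREAT 1+4 and 2+3 (log2 2.91 ± 0.52 SE, edgeR adjusted p = 2.88e-05), and ranged from 52.6 to 195 CPM over the 5 TREAT patches, against 13.0 CPM in the Vehicle patch. Ttc9b stood at 52.9 and 46.8 CPM in Vehicle 1+4 and 2+3 and at 241 and 150.2 CPM in TREAT 1+4 and 2+3 (log2 1.93 ± 0.37 SE, edgeR adjusted p = 0.000163). Stmn1, the microtubule regulator stathmin, stood at 92.6 and 187 CPM in Vehicle 1+4 and 2+3 and at 334 and 251 CPM in TREAT 1+4 and 2+3 (log2 1.60 ± 0.35 SE, edgeR adjusted p = 0.00230). Ptgds, the prostaglandin D synthase made by meninges and oligodendrocytes, stood at 90.8 and 93.6 CPM in Vehicle 1+4 and 2+3 and at 361 and 214 CPM in TREAT 1+4 and 2+3 (log2 1.71 ± 0.35 SE, edgeR adjusted p = 0.000672). Its highest patch was the upper right patch of TREAT 1+4 (304 CPM), while the left and lower right patches had 26.9 and 33.9 CPM, below both Vehicle areas. Every patch of TREAT 1+4 lay below that area's 361 CPM, so its members outside patches lay above it. With the mean rank as the score the log2 change of Ptgds was -0.13. Gng4, a G protein gamma subunit, and Cntn4, an adhesion molecule of axons, had log2 changes of 1.71 and 2.38 with edgeR adjusted p of 0.00484 and 0.00519. The lowest TREAT area lay above the highest Vehicle area in each of these 6 genes.

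Among the lower genes whose areas did not overlap, Prox1, the marker of the dentate gyrus, had the smallest p. It stood at 282 and 46.8 CPM in Vehicle 1+4 and 2+3 and at 23.5 and 23.7 CPM in TREAT 1+4 and 2+3 (log2 -3.35 ± 0.31 SE, edgeR adjusted p = 7.83e-24). The 23 dentate gyrus list members of Vehicle 1+4, picked by a list that holds Prox1, had 664 CPM. The patch of that area had 39.1 CPM and its remaining 21 members 29.0 CPM, against 18.7 to 26.9 CPM in the TREAT patches. Adra1d, an adrenergic receptor, stood at 109.7 and 93.6 CPM in Vehicle 1+4 and 2+3 and at 29.0 and 22.4 CPM in TREAT 1+4 and 2+3 (log2 -2.06 ± 0.37 SE, edgeR adjusted p = 4.11e-05), Smoc2, a matricellular protein, at 132 and 93.6 CPM in Vehicle 1+4 and 2+3 and at 42.1 and 31.5 CPM in TREAT 1+4 and 2+3 (log2 -1.78 ± 0.35 SE, edgeR adjusted p = 0.000208), and Ccbe1, an extracellular matrix protein, at 62.4 and 46.8 CPM in Vehicle 1+4 and 2+3 and at 8.29 and 9.53 CPM in TREAT 1+4 and 2+3 (log2 -2.69 ± 0.52 SE, edgeR adjusted p = 0.000199). Their dentate gyrus list members had 254, 273 and 137 CPM against 4.34, 26.0 and 17.4 CPM in the patch. Of the 37 lower genes, 23 were over 2-fold higher in those dentate gyrus list members than in the Vehicle patch, and 6 the other way. For the 19 higher genes these counts were 2 and 5. The share over all tested genes was not taken, so the counts are not read as a trait of the called genes. Without dentate gyrus list members, chosen after seeing the data, 22 genes passed, 14 of them among the 56, and Adra1d had a log2 change of 0.45. With only members of patches of at least 10, Adra1d and Smoc2 had log2 changes of 2.63 and 0.45.

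Among the other lower genes, Npy, the neuropeptide Y of a class of interneurons, stood at 355 and 562 CPM in Vehicle 1+4 and 2+3 and at 139 and 141 CPM in TREAT 1+4 and 2+3 (log2 -1.38 ± 0.29 SE, edgeR adjusted p = 0.00146). In Vehicle 1+4 it was highest in the detached fragment, with 699 CPM in the patch and 84.7 CPM in the dentate gyrus list members, and without the fragment the log2 change was 0.39. Ecel1, a neuronal endopeptidase, stood at 88.9 and 46.8 CPM in Vehicle 1+4 and 2+3 and at 13.8 and 23.5 CPM in TREAT 1+4 and 2+3 (log2 -2.06 ± 0.41 SE, edgeR adjusted p = 0.000239), with 251 CPM in the 21 members of Vehicle 1+4 outside both sets. Shisa6, an AMPA receptor auxiliary protein, stood at 354 and 328 CPM in Vehicle 1+4 and 2+3 and at 82.9 and 149.6 CPM in TREAT 1+4 and 2+3 (log2 -1.48 ± 0.29 SE, edgeR adjusted p = 0.000199). Ehd1, an endocytic recycling protein, and Nfia, a transcription factor of glia and granule cells, had log2 changes of -1.58 and -1.58. Without the fragment 173 genes passed (75 higher and 98 lower), 44 of them among the 56. With only members of patches of at least 10, where Vehicle 2+3 has none and its spread is taken from the other areas, no gene passed (957 at an unadjusted p under 0.05).

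**Figure D5:**
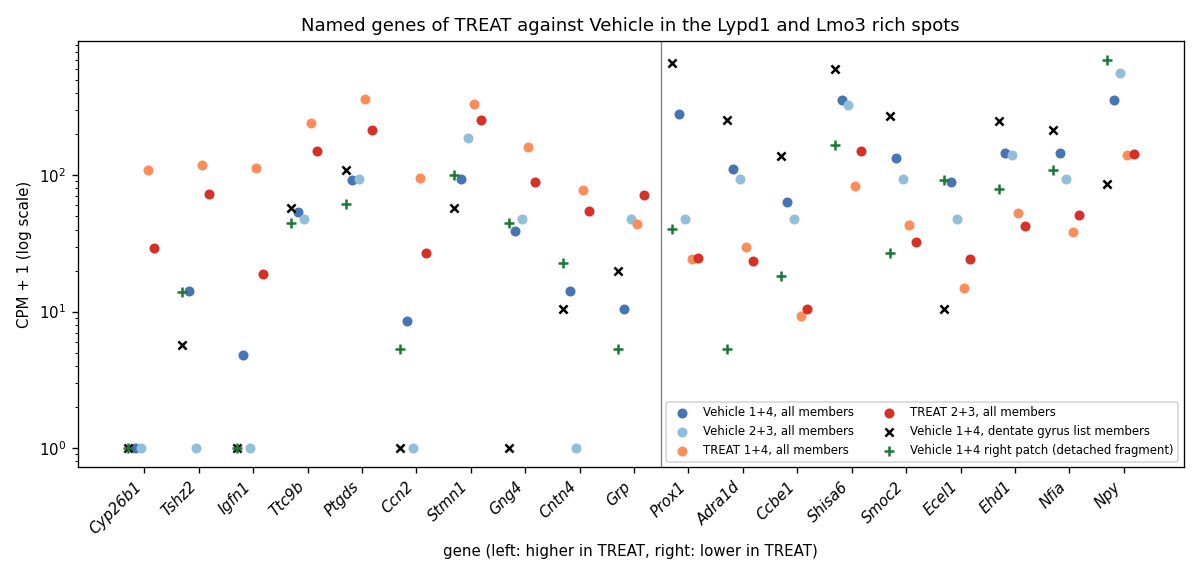
CPM + 1 (log scale) of the 19 genes named for TREAT against Vehicle in the members, 10 higher in TREAT (left) and 9 lower (right). Each filled point is the sum over all members of an area (2 Vehicle and 2 TREAT areas), crosses are the 23 dentate gyrus list members of Vehicle 1+4 and plus signs its detached fragment patch. Prox1 is at 664 CPM in the dentate gyrus list members and at 39.1 CPM in the patch, and Npy the other way round at 84.7 and 699 CPM. Prox1 is in the list that picked the dentate gyrus list members.

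Read by list, the calls were few against a median log2 change of 0.04 over all genes tested. Of the basolateral amygdala list 2 of 7 tested genes rose (Cyp26b1 and Grp), where 0.188% of all genes rose and 0.365% fell, and the median was 1.05. Of the olfactory cortex list 1 of 6 rose (Reln, at 9.45, 93.6, 58.7 and 64.5 CPM, log2 2.25 ± 0.56 SE, edgeR adjusted p = 0.0132). In these plain CPM its Vehicle 2+3 value lay above both TREAT areas, so the groups overlapped. Of the dentate gyrus list 2 of 3 tested genes fell (Prox1 and C1ql2, the latter at 374, 0, 3.45 and 43.9 CPM with overlapping areas, log2 -3.46 ± 0.29 SE, edgeR adjusted p = 1.77e-29). Among 23 tested neuropeptides and receptors Penk (proenkephalin, 66.2, 46.8, 193 and 144 CPM, log2 1.41 ± 0.35 SE, edgeR adjusted p = 0.0139) and Grp rose, and Npy fell. Vim, an intermediate filament of reactive astrocytes and mesenchymal cells, fell with 115, 93.6, 17.3 and 53.4 CPM (log2 -1.52 ± 0.35 SE, edgeR adjusted p = 0.00519), and was highest in the detached fragment (182 CPM, against 1737 CPM in the other spots of that piece). Cebpb, a transcription factor of the mesenchymal glioma state, fell with 102, 0, 21.4 and 36.6 CPM (log2 -1.58 ± 0.37 SE, edgeR adjusted p = 0.00632), making 2 of the 3 tested genes of that list. The Vehicle 2+3 value of Cebpb lay below both TREAT areas, so the groups overlapped. No gene of the glutamatergic, presynaptic, antigen presentation or interferon lists passed.

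The treatment difference of members was then set against that of all other spots, by the interaction term over 8 sums with the area as a block. At an adjusted p under 0.05, 24 of 19918 genes differed upward, meaning a larger TREAT over Vehicle change in members (0.12%), and 18 downward (0.0904%). Of them 24 and 5 had areas that did not overlap in the log2 ratio of members over other spots. The share of all tested genes without overlap was not taken here either. The median gene lay at 0.67 on the log2 scale, and the proliferating list of the other spots was lower in TREAT, at 1428, 1571, 375 and 906 CPM. Some upward genes, such as Tapbp, were low in all members and higher in the other spots of Vehicle than of TREAT. Tapbp, a chaperone of MHC class I loading, stood at 58.6 and 46.8 CPM in Vehicle 1+4 and 2+3 and at 49.7 and 72.2 CPM in TREAT 1+4 and 2+3, with 1279, 1546, 183 and 654 CPM in the other spots (log2 2.55 ± 0.55 SE, edgeR adjusted p = 0.00526). Cdkn1a, the cell cycle inhibitor p21, had a log2 difference of 3.23 and Racgap1, a cytokinesis protein, 3.67. The histone genes Hist1h2ak, Hist1h4m and Hist2h2bb had 2.22, 2.08 and 2.17. Hist1h4m was not low in members, at 618 to 1047 CPM in the TREAT patches and 812 CPM in the Vehicle 1+4 patch. Plxnd1, a semaphorin receptor, stood at 79.4 and 46.8 CPM in Vehicle 1+4 and 2+3 and at 221 and 158 CPM in TREAT 1+4 and 2+3, with 95.9, 88.7, 52.1 and 60.6 CPM in the other spots (log2 2.67 ± 0.51 SE, edgeR adjusted p = 0.000576).

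Of 6 dentate gyrus list genes 4 (Prox1, C1ql2, Dsp and Lct) and of 6 choroid plexus list genes 2 (Kl and Ttr) passed downward. Prox1 differed by log2 -3.29 ± 0.50 SE, edgeR adjusted p = 3.21e-07. Ecel1 differed by log2 -3.02 ± 0.58 SE, edgeR adjusted p = 0.000600, and Npy by log2 -2.07 ± 0.46 SE, edgeR adjusted p = 0.00866. Ttr, high in the Vehicle 1+4 patch, had a log2 difference of -4.02. The groups overlapped for Ttr, C1ql2, Dsp and Trh, which had no UMI in the members of Vehicle 2+3, and without Vehicle 1+4 their differences turned positive, at 10.13, 11.23, 6.25 and 10.44. Of 29 neuropeptide genes 3 (Npy, Trh and Pdyn) passed downward and 1 (Grp, log2 3.33 ± 0.74 SE, edgeR adjusted p = 0.00799) upward. All 14 antigen presentation genes had a positive difference, as had 14739 of the 19918 genes tested, with a median of 1.76 against 0.67 over all genes, and 1 passed. Without Vehicle 1+4 no gene passed (993 at an unadjusted p under 0.05), and without TREAT 2+3 535 did. DESeq2 called only Npy.

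Against the upper-layer cortex list spots, 8 of 11844 genes differed upward (0.0675%) and 12 downward (0.101%), 6 and 2 with non-overlapping areas. Again the share of all tested genes without overlap was not taken. Igfn1 stood at 3.78 and 0 CPM in Vehicle 1+4 and 2+3 and at 111 and 17.7 CPM in TREAT 1+4 and 2+3 in members against 58.7, 21.5, 34.9 and 38.8 CPM in the upper-layer set (log2 4.43 ± 0.80 SE, edgeR adjusted p = 6.18e-05). Cux2, an upper-layer transcription factor that the set was chosen on, stood at 26.5 and 46.8 CPM in Vehicle 1+4 and 2+3 and at 106 and 30.8 CPM in TREAT 1+4 and 2+3 in members (log2 2.47 ± 0.48 SE, edgeR adjusted p = 0.000408), and so is no independent result. Cd74 stood at 37.8 and 46.8 CPM in Vehicle 1+4 and 2+3 and at 24.2 and 138 CPM in TREAT 1+4 and 2+3 in members against 166, 371, 31.5 and 153 CPM (log2 2.11 ± 0.45 SE, edgeR adjusted p = 0.00250), and 559 of its UMIs in TREAT 2+3 lay in the right patch. Rprm, a cell cycle inhibitor of deep-layer neurons, stood at 125 and 46.8 CPM in Vehicle 1+4 and 2+3 and at 290.0 and 174 CPM in TREAT 1+4 and 2+3 in members (log2 1.74 ± 0.40 SE, edgeR adjusted p = 0.0128). Pcdh20, a protocadherin, differed downward with 255 and 93.6 CPM in Vehicle 1+4 and 2+3 and at 33.8 and 76.0 CPM in TREAT 1+4 and 2+3 in members (log2 -1.96 ± 0.39 SE, edgeR adjusted p = 0.000571), 98 of the 135 UMIs of Vehicle 1+4 coming from its dentate gyrus list members. Of 6 dentate gyrus list genes 4 (Prox1, C1ql2, Dsp and Lct) passed downward here too. The groups overlapped for Prox1 and C1ql2, and without Vehicle 1+4 the differences of C1ql2 and Dsp turned positive, at 8.15 and 1.27. No gene passed without Vehicle 1+4 (743 at an unadjusted p under 0.05) or without Vehicle 2+3 (597), and DESeq2 called none (121).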

How the data were processed

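Whole-number UMI counts per gene and spot, with spot positions, were deposited for 4 capture areas. Per the submitters' processing notes they were made with Space Ranger 2.1.1, R 4.4.1 and Seurat against mm10, and per the labels' protocols the libraries came from probes hybridised to fixed sections. Of 32589 features 304 were marked deprecated and 20457 were used. Gene positions are those of RefSeq's table for GRCm38.p6, which named 20018 of them.

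Scores were taken as described above. Counts were summed over members, other spots and comparison spots per area. CPM divides a sum by its UMIs over all features. Distances to tumour are in spot spacings to the nearest connected patch of at least 10 spots at or above the 80th percentile of the proliferating tumour list. TREAT and Vehicle were compared with edgeR 4.0.16 (quasi-likelihood test, TMM, filterByExpr) in R 4.3.3, adjusted by Benjamini-Hochberg at 0.05, and DESeq2 1.42.0 was an alternative. The interaction fits used 8 sums with the area as a block. The 6 score genes were left out of counts of calls. Scripts used Python 3.11.15, numpy 2.4.6, pandas 2.3.3 and scipy 1.17.1, and the fits were tested on simulated data.

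Genes named between members and other spots are the 20 with the highest lowest-area ratio and the 10 with the lowest highest-area ratio, at a minimum of 20 CPM. Genes named per fit are the 10 with the smallest p in each direction whose areas did not overlap, or 6 by p where fewer passed, beside members of the gene lists. Some genes that these rules select are not reported here. The members and lists were chosen with earlier results of these data known. The labels share numbers between groups, but the deviations of same-numbered areas correlated at -0.02 over 8097 genes, and the numbers were used as names only. Alternatives were other percentiles, UMI minimums, thinning, ranks, filters, scalings and left-out areas. Doublets were not called, since a spot is not a cell.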

Additional observations from a re-analysis of the deposited data

Results flagged for a closer look

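The interaction test found treatment differences that were not the same in members as in other spots. Against all other spots 42 genes passed. Among the named ones the log2 difference was 2.67 for Plxnd1, 3.23 for Cdkn1a, 2.22 for Hist1h2ak, 2.08 for Hist1h4m, 2.55 for Tapbp, 3.33 for Grp, 3.67 for Racgap1, 2.59 for Nhp2, 2.97 for Tshz2 and 2.17 for Hist2h2bb. It was -3.29 for Prox1, -3.02 for Ecel1, -2.07 for Npy, -3.80 for Kl, -2.94 for St18, -4.02 for Ttr, -5.38 for Dsp, -2.78 for C1ql2 and -3.51 for Trh, the last 4 with overlapping groups and a positive difference without Vehicle 1+4.

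Against the upper-layer cortex list spots 20 genes passed. The log2 difference was 4.43 for Igfn1, 2.47 for Cux2, 2.11 for Cd74, 2.69 for Tshz2, 1.74 for Rprm and 1.75 for Ttc9b. It was -5.23 for Dsp, -1.96 for Pcdh20, -4.46 for Ttr, -3.03 for Prox1, -3.02 for C1ql2 and -2.41 for Stxbp6. The groups overlapped for Ttr, Prox1, C1ql2 and Stxbp6, and without Vehicle 1+4 the differences of Ttr, C1ql2 and Dsp were positive. Tshz2, Prox1, Ttr, Dsp and C1ql2 passed in both comparisons, which share the member sums.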

How the results depend on the processing

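The share of member spots kept its direction under the settings run, apart from the 96th percentile within each area, which sets the shares equal (a difference of -0.0052 percentage points), and leaving out 1 area moved the difference between 0.294 and 9.77 percentage points. The 56 genes of TREAT against Vehicle in members became 25 with the replicate block, 6 at the 98th percentile, 11 at a UMI minimum of 5000 (Vehicle 2+3 then has no member, and Vehicle 1+4 is assumed to vary like the other areas), 1 with the mean rank as score, 22 without dentate gyrus list members and 173 without the detached fragment. They became 0 with DESeq2, at the 92nd percentile, at the 96th percentile within each area, with thinned spots and with patches of at least 10, where 37, 1288, 1274, 1117 and 957 genes had an unadjusted p under 0.05. Leaving out 1 area gave 0 to 56 genes. Against all other spots DESeq2 called 1 gene and leaving out 1 area gave 0 to 535, and against upper-layer spots 0 (121 at an unadjusted p under 0.05) and 0 to 37. The causes were not tested.

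Some named genes changed sign. In members these were Igfn1 (log2 -0.047) and Ptgds (-0.13) with the mean rank, Adra1d (2.63) and Smoc2 (0.45) with patches only, Adra1d (0.45) without dentate gyrus list members and Npy (0.39) without the fragment. Leaving out 1 area moved the difference from all other spots between -6.33 and 10.13 for Ttr, -13.61 and 6.25 for Dsp, -5.77 and 11.23 for C1ql2 and -8.06 and 10.44 for Trh. From upper-layer spots the ranges were -9.15 to 1.27 for Dsp, -5.65 to 8.58 for Ttr and -5.32 to 8.15 for C1ql2. The positive ends came without Vehicle 1+4. The 7 members of Vehicle 2+3, with 21370 UMIs, limit every Vehicle value.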

Other observations

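Genes of neuronal activity and cell stress set members apart less than tumour genes did. The immediate early list, transcribed within minutes of strong input, summed to 629.6, 608, 602 and 499 CPM in members against 978, 888, 499.9 and 753 CPM in other spots, and 1 of 13 genes, Ier2, was over 2-fold lower in all 4 areas. The stress response list summed to 1323, 889, 1132 and 1226 CPM against 3309, 3489, 1680.0 and 2287 CPM, with 4 of 12 genes over 2-fold lower. Astrocyte genes, which mark healthy as well as reactive cells, summed to 3681, 3229, 2588 and 3453 CPM in members against 1786, 1165, 3069.5 and 1947 CPM, higher in members in 3 areas and lower in TREAT 1+4.

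Patches differed in reactive astrocyte genes, with sums of 67.1, 98.3 and 62.1 CPM in the left, lower right and upper right patches of TREAT 1+4, 252 and 1150.1 CPM in the left and right patches of TREAT 2+3 and 1241 CPM in the Vehicle 1+4 patch.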
